A study of Mus musculus with 29 samples.

Results

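The genes described here are 30 genes of sterol handling, of the 24770 gene symbols measured by RNA-seq in brown adipose tissue (BAT) and gastrocnemius skeletal muscle (SkM) of young adult male C57BL/6J mice. They are the rows of the table whose symbol belongs to a list of the mevalonate and cholesterol pathway, of its SREBP2 regulation and of sterol transport, and all 30 were found. By role they are 7 enzymes of the mevalonate arm, 3 enzymes from squalene to lanosterol, 9 enzymes or reductases after lanosterol, 4 regulators, and 7 genes of uptake, storage and efflux. All 30 passed the filter on low counts in every comparison.

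The study asked how calorie restriction and exercise, alone or together, act on the transcriptome of both tissues. Control mice were sedentary and ate freely, CR mice were sedentary and had their food cut stepwise below free intake, EX mice ate freely and were trained on a treadmill, and CREX mice had both. All groups were wild-type mice, fasted for some hours before the tissues were taken, and trained mice were sampled the day after their last run. The libraries comprised 3 control, 4 CR, 4 EX and 4 CREX mice for BAT, and 4 control, 3 CR, 4 EX and 3 CREX mice for SkM, 29 in all, each a whole tissue. In whole tissue, fewer cells of a type and less RNA per cell cannot be told apart.

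Cells make cholesterol from acetyl-CoA. The mevalonate arm builds isoprenoid units, Fdft1 joins them to squalene, Sqle and Lss close the ring to give lanosterol, and the later enzymes turn lanosterol into cholesterol. When sterols run low in the endoplasmic reticulum, SCAP escorts SREBP2 (encoded by Srebf2) to the Golgi, where it is cut and released as a transcription factor for nearly the whole pathway. When sterols are plentiful, the INSIG proteins hold SCAP back, oxysterols activate the LXR receptors, and LXR raises the efflux pumps Abca1 and Abcg1 and the ubiquitin ligase Mylip, which removes lipoprotein receptors. Brown adipocytes burn lipid for heat and take up much of it from lipoproteins, and muscle fibres have little sterol synthesis of their own.

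Library totals lay between 21047242 and 24919377 counts for BAT and between 23050918 and 23425284 for SkM. Levels are given as CPM, a gene's count scaled to a common library size. At these depths 3 counts corresponded to 0.120 to 0.143 CPM for BAT and 0.128 to 0.130 CPM for SkM, for counting error only. The defining markers matched the tissue labels, since Ucp1, the uncoupling protein of brown fat, had at least 34392 counts in every BAT library and at most 3 in any SkM library. Summed over 10 muscle fibre markers, BAT libraries held between 0.00295% and 4.74% of the mean SkM level. In SkM, Adipoq, an adipocyte hormone, stood above 5 CPM in CR replicates 1 and 3, CREX replicate 1 and EX replicate 1 (9.92, 13.4, 14.8 and 12.8 CPM). Alb, made by hepatocytes, stood at 27.9, 153 and 144 CPM in the 3 SkM CR libraries and at 34.9 CPM in CREX replicate 1, against 3.21 CPM or less in the other SkM libraries. In BAT, EX replicate 1 stood apart for the genes described here: it was the highest EX library for 13 of the 19 synthesis enzymes. CR replicate 4 was likewise the highest CR library for 12 of the 19. Control replicate 1 was the lowest control library for 16 of the 19. Alb was also above 30 CPM in 1 library each of BAT CR, EX and CREX (replicates 3, 2 and 4, at 51.4, 38.9 and 32.3 CPM), against 3.10 CPM or less in the other BAT libraries.

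Genes of sterol synthesis were higher in BAT of calorie-restricted mice. In CR against control mice, 11 of the 30 genes were higher and 1 was lower, where called means that edgeR's quasi-likelihood test gave an adjusted p under 0.05 and the fold passed 1.5. Among the 13323 genes tested, 3.87% were called higher and 6.86% lower. The median log2 fold change was 0.40 over the 30 genes and 0.0045 over all genes tested, and 25 of the 30 values were positive. The plot of fold changes by role shows called genes from the mevalonate arm to the steps just after lanosterol.

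**Figure D1:**
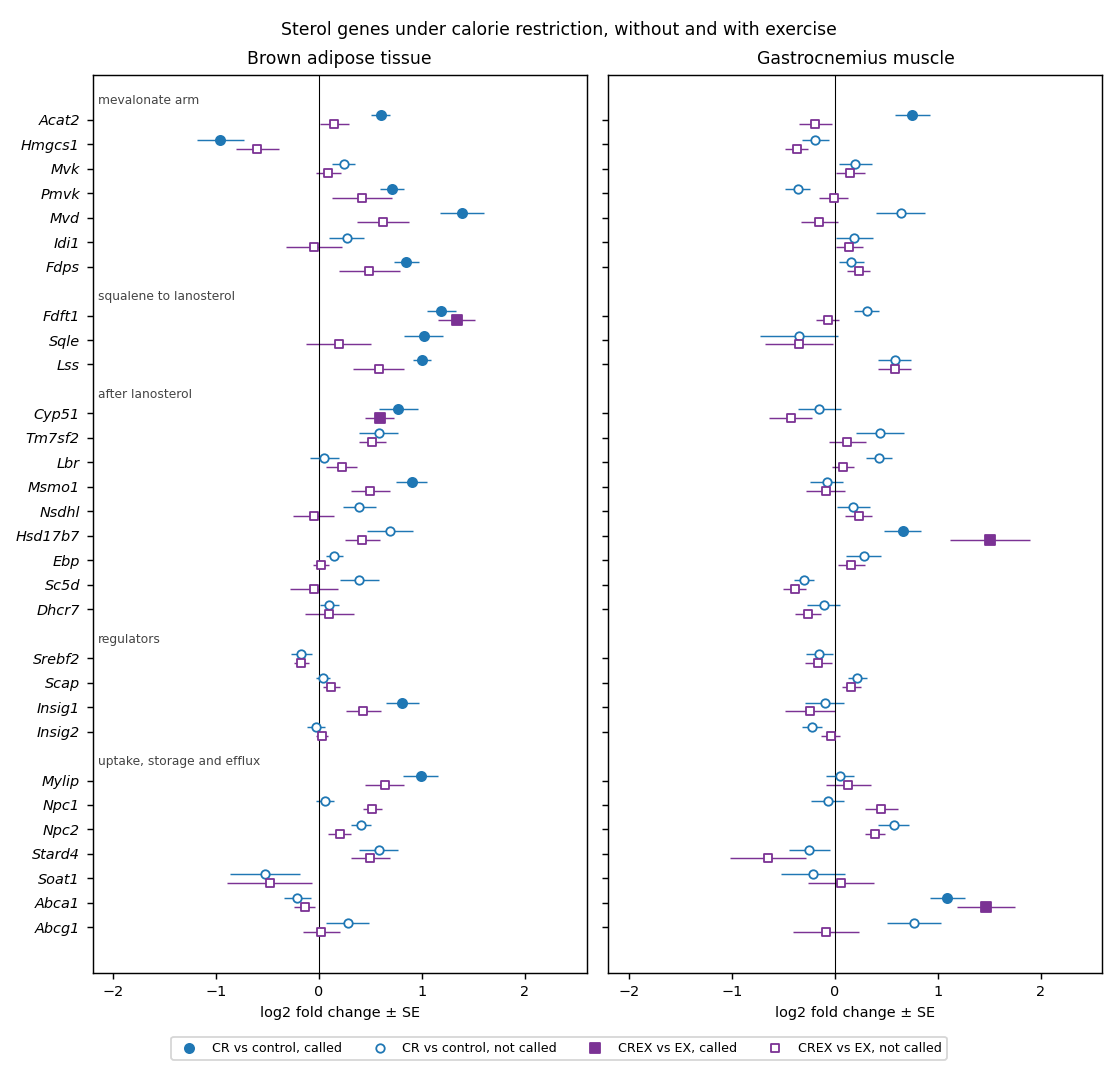
Log2 fold change ± SE (x axis) of the 30 sterol genes (y axis, by role) in BAT (left) and SkM (right), for CR against control (circles) and CREX against EX (squares), with filled symbols for genes called. In BAT, 11 circles are filled to the right of 0 and 1 (Hmgcs1) to the left, and in SkM the filled symbols are Acat2, Hsd17b7 and Abca1.

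In the mevalonate arm, 4 of 7 genes rose and 1 fell. Mvd, which makes isopentenyl diphosphate, had 2.01, 3.26 and 2.52 CPM in the control libraries and 7.25, 5.53, 5.85 and 8.68 CPM in the CR libraries. Every CR library was above every control library, and the log2 fold change of 1.39 ± 0.21 (SE, adjusted p = 0.00148 by edgeR) was the largest of the 30. Fdps, which makes farnesyl diphosphate, had 22.3, 26 and 30.2 CPM in controls and 44.0, 51.7, 41.7 and 51.7 CPM in CR mice. The groups did not overlap, and the log2 fold change was 0.85 ± 0.12 (adjusted p = 0.00128 by edgeR). An overlapping annotated gene on the same strand shares 26.7% of the exon bases of Fdps and has no row in the table. Pmvk, the kinase before Mvd, rose by 0.71 ± 0.12 on the log2 scale (adjusted p = 0.00437 by edgeR), from 30.2, 37.8 and 44.6 CPM to between 57.5 and 68.5 CPM. Acat2, a cytosolic thiolase at the entry of the pathway, rose by 0.60 ± 0.09 (adjusted p = 0.00171 by edgeR), close to the fold minimum, from 98.5 to 126 CPM in controls to 162 to 186 CPM. Its neighbour Acat3 is nearly identical in sequence, so reads may be split between the pair, and Acat3 stood at 1.27 to 2.5 CPM in the control and 1.91 to 4.34 CPM in the CR libraries. Without control replicate 1, 8 of the 30 genes were called higher and 0 lower: Acat2 (0.50) and Pmvk (0.58) fell under the fold minimum, and Cyp51 and Hmgcs1 missed the adjusted p. Acat2 was also lost without CR replicate 4, and Pmvk in the fit over all groups. Mvk and Idi1 were not called, at 0.24 ± 0.11 and 0.27 ± 0.17.

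Hmgcs1, the cytosolic HMG-CoA synthase that opens the committed part of the arm, went the other way. It had 145, 177 and 149 CPM in controls and 79.1, 50.1, 102 and 92.6 CPM in CR mice. Every CR library was below every control library, and the log2 fold change was -0.96 ± 0.23 (adjusted p = 0.0326 by edgeR), a level of 0.515 times the control. The call was lost in 5 of the 7 fits that left out 1 library and with no filter on low counts, with values between -1.09 and -0.79 over all alternatives. An antisense gene shares 12.1% of the exon bases of Hmgcs1, and the counting command set no strand option, so reads of the pair in the shared bases cannot be told apart.

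All 3 enzymes from squalene to lanosterol rose. Fdft1, squalene synthase, had 121, 85.5 and 127 CPM in controls and 250, 292, 241 and 231 CPM in CR mice. The lowest CR library stood well above the highest control, at a log2 fold change of 1.19 ± 0.14 (adjusted p = 0.000988 by edgeR). Lss, lanosterol synthase, had the smallest p of the 30 genes, with 17.7, 19.4 and 19.2 CPM in controls and 39.1, 34.3, 34.5 and 42.0 CPM in CR mice (log2 fold change 1 ± 0.09, adjusted p = 0.000112 by edgeR). Sqle, squalene epoxidase and a control point of the pathway, was less abundant, with 4.94, 8.89 and 7.05 CPM against 15.9, 11.7, 13.1 and 15.7 CPM, and again the groups did not overlap (1.02 ± 0.19, adjusted p = 0.00633 by edgeR).

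Fdft1 needs a limit beside its values. Its exons overlap those of Ctsb, a lysosomal protease gene on the opposite strand, over 774 bases or 18.3% of the exon bases of Fdft1, and Ctsb was chosen here after the values were seen. Ctsb was far more abundant, at 1120 ± 32 CPM (SD, n = 3) in controls and 1380 ± 51.3 CPM (n = 4) in CR mice, and it moved by a log2 fold change of 0.30 ± 0.06 (adjusted p = 0.00664 by edgeR), below the fold minimum. Fdft1 went from 111 ± 22.3 to 254 ± 26.5 CPM. Counted without strand, reads in the shared bases cannot be told apart, and the share of Ctsb reads in the Fdft1 values was not tested.

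After lanosterol, 2 of 9 genes rose and all 9 values were positive. Cyp51, lanosterol demethylase, had 13.2, 17.0 and 17.3 CPM in controls and 30.5, 20.6, 23.0 and 34.4 CPM in CR mice (0.77 ± 0.19, adjusted p = 0.0241 by edgeR). The groups did not overlap, but the call was lost in 4 of 7 fits that left out 1 library. Msmo1, a methyl sterol oxidase, rose from 7.91, 10.4 and 8.87 CPM to 18.9, 12.5, 16.7 and 19.4 CPM (0.90 ± 0.15, adjusted p = 0.00363 by edgeR). Hsd17b7 and Tm7sf2, a keto-reductase and a sterol reductase, missed the adjusted threshold by little, with log2 fold changes of 0.69 ± 0.22 and 0.58 ± 0.19 (adjusted p = 0.0511 and 0.0501 by edgeR). Tm7sf2 was also just under the fold minimum, though its groups did not overlap. Those of Hsd17b7 did, at 4.59 to 8.98 CPM in CR mice and 3.41 to 5.07 CPM in controls. Of the others, Ebp stood at 0.15 ± 0.08, Dhcr7 at 0.10 ± 0.09 and Lbr at 0.05 ± 0.14, while Nsdhl and Sc5d were both at 0.39.

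Among the regulators, Insig1 rose and the rest were not called. Insig1, itself a target of SREBP2, had 148, 202 and 191 CPM in controls and 395, 287, 264 and 320 CPM in CR mice, without overlap (0.81 ± 0.16, adjusted p = 0.00924 by edgeR). Srebf2 had 20.3, 22.1 and 20.8 CPM against 19.2, 15.6, 20.3 and 19.8 CPM, a log2 fold change of -0.17 ± 0.10 that was not called (adjusted p = 0.236 by edgeR). Scap and Insig2 stood at 0.04 ± 0.07 and -0.03 ± 0.09.

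Among the genes of uptake, storage and efflux, Mylip rose and the other 6 were not called. Mylip had 25.3, 16.9 and 16.1 CPM in controls and 41.4, 43.8, 32.9 and 36.1 CPM in CR mice (0.99 ± 0.17, adjusted p = 0.00627 by edgeR). All CR libraries were above all controls, and the call held in every alternative run. The LXR targets Abca1 and Abcg1 stood at -0.21 ± 0.13 and 0.28 ± 0.21. Npc2, a cholesterol carrier of the lysosome, passed the adjusted p but not the fold minimum (0.41 ± 0.10, adjusted p = 0.0137 by edgeR), and its partner Npc1 was at 0.06 ± 0.09. Stard4, a cytosolic sterol carrier, was at 0.58 ± 0.19, and Soat1, which esterifies cholesterol, was near the detection level at 0.247 to 0.743 CPM.

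Values of other cell types moved with CR in BAT. Of the brown adipocyte markers, 2 of 10 were called lower in CR mice and none was called higher. Ucp1 averaged 2100 CPM against 4260 CPM in controls, while Adipoq was at 756 against 782 CPM. Elovl3 stood higher without a call, at 73.3 to 109 CPM against 23.6 to 68.3 CPM in controls. In the fit of the CR effect over all BAT groups, 1 of the 10 was called higher and 2 lower. The fibroblast markers summed to 186 to 228 CPM in CR mice and 324 to 406 CPM in controls, with 6 of 10 lower, and the endothelial markers to 331 to 406 CPM against 484 to 523 CPM, with 2 of 10 lower. The B cell markers summed to 23.5 to 27.6 CPM against 74.9 to 87.3 CPM, and both that passed the filter were lower. Most of each sum was Cd74, at a mean of 25.2 CPM in CR mice and 77.8 CPM in controls. The sum is thus a value of Cd74 more than of B cells. The part of these cells in the sterol gene values was not tested.

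**Figure D2:**
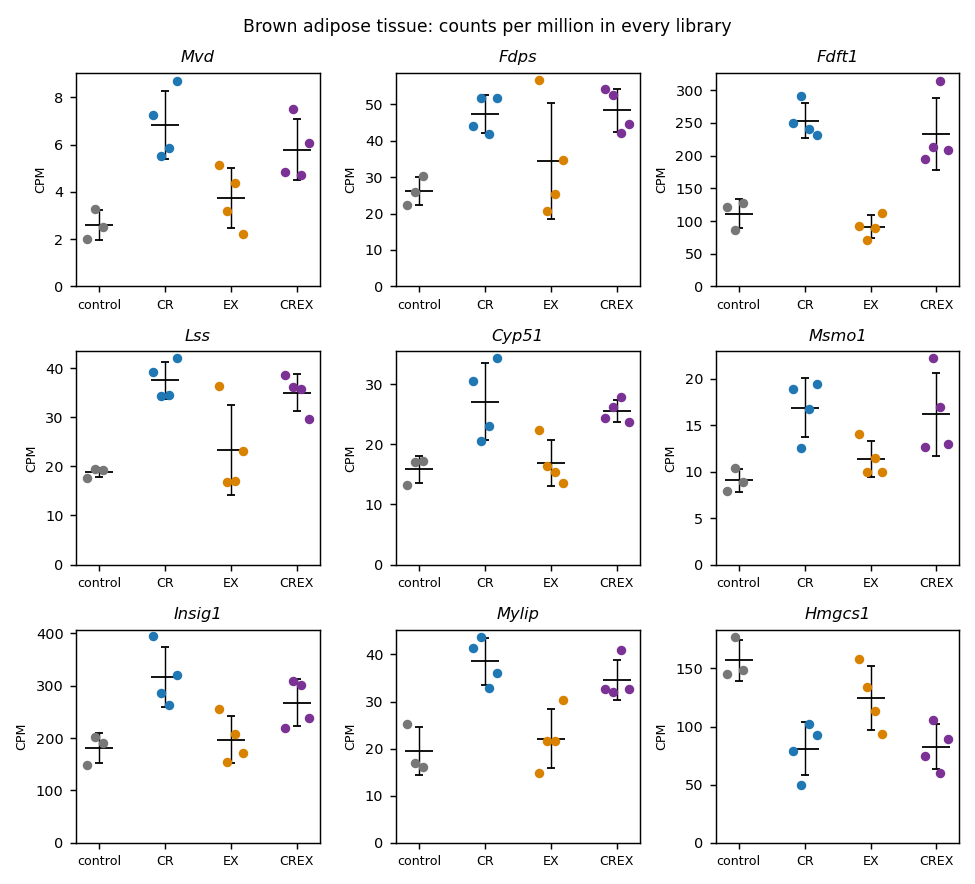
CPM (y axis, from 0) in every BAT library of the 4 groups, for the 9 sterol genes called in the fit of the CR effect over all groups, with points for mice and bars for the mean ± SD. For 8 genes the blue CR and purple CREX points lie high, for Hmgcs1 they lie low, and EX replicate 1 is the leftmost orange point.

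In trained mice, the comparison of CREX with EX gave fewer calls in BAT. Only Fdft1 and Cyp51 of the 30 genes were called, both higher, where 1.86% of 13251 genes were called higher and 2.63% lower, and the median over the 30 genes was 0.20. Fdft1 had 92.3, 71.1, 89.9 and 113 CPM in EX mice and 195, 214, 314 and 208 CPM in CREX mice. Every CREX library was above every EX library, at a log2 fold change of 1.34 ± 0.18 (adjusted p = 0.0054 by edgeR). Ctsb moved by 0.39 ± 0.07 (adjusted p = 0.0103 by edgeR), below the fold minimum. Cyp51 had 22.4, 16.4, 15.4 and 13.6 CPM against 24.4, 26.3, 27.8 and 23.7 CPM, just past the fold minimum at 0.59 ± 0.14 (adjusted p = 0.0329 by edgeR), a call lost in 7 of 8 fits that left out 1 library. Hmgcs1 was at -0.60 ± 0.21 and not called.

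EX replicate 1 stood apart in this comparison. Its Lss stood at 36.4 CPM against 16.9, 17.1 and 23.2 CPM in the other EX libraries, its Fdps at 56.6 CPM against 20.7, 25.3 and 34.7 CPM, and its Sqle at 18.8 CPM against 7.45, 7.09 and 9.67 CPM. For 9 of the 19 enzymes it was above every CR library too. Without it, 4 genes were called higher instead of 2: Fdft1 at 1.35, Cyp51 at 0.76, Lss at 0.88 and Fdps at 0.85 (adjusted p = 0.017, 0.00502, 0.00857 and 0.0343 by edgeR), beside 1.71% of the 13496 genes then tested. With it, Lss and Fdps were at 0.58 ± 0.25 and 0.49 ± 0.30. EX replicate 1 was singled out after its high values were seen. Leaving out the highest EX library for a gene raises the fold change of that gene. The added calls of Lss and Fdps are thus not separate support. Npc1 passed the adjusted p but not the fold minimum in the fit with all libraries (0.52 ± 0.09, adjusted p = 0.00972 by edgeR).

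**Figure D3:**
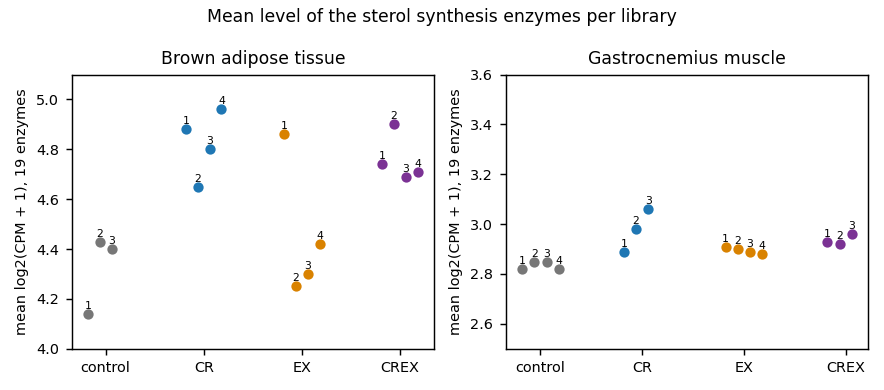
Mean of log2(CPM + 1) over the 19 sterol synthesis enzymes (y axis, not from 0, with an equal span in both panels) in each library, numbered by replicate, in BAT (left) and SkM (right). BAT control libraries sit between 4.14 and 4.43 and CR libraries between 4.65 and 4.96, and EX replicate 1 at 4.86 is apart from the other EX libraries, which reach 4.42.

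Averaged over those 19 enzymes as log2(CPM + 1), BAT libraries stood at 4.14 to 4.43 in controls, 4.65 to 4.96 in CR, 4.25 to 4.86 in EX and 4.69 to 4.90 in CREX mice. The plot of this mean shows EX replicate 1 among the CR libraries and the other EX libraries among the controls. In 1 fit over all BAT groups with CR and EX as terms, 8 of the 30 genes were higher under CR and 1 lower, against 3.84% and 7.55% of 13530 genes. These were Fdft1 (1.27 ± 0.13), Mvd (0.96 ± 0.20), Mylip (0.80 ± 0.15), Lss (0.77 ± 0.15), Msmo1 (0.68 ± 0.14), Cyp51 (0.67 ± 0.12), Fdps (0.65 ± 0.18), Insig1 (0.60 ± 0.13) and, lower, Hmgcs1 (-0.77 ± 0.17). This fit uses the libraries of the comparisons above again, so it is not separate evidence. The calls of Fdft1, Mvd, Mylip, Lss, Msmo1, Cyp51 and Hmgcs1 held in all 21 alternatives run for this fit, including the muscle marker score as a covariate.

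Training by itself called none of the 30 genes in BAT. In EX against control mice 0% of 13407 genes were called by edgeR. Of the 30, 3 had an unadjusted p under 0.05 (Npc1, Acat2 and Msmo1), beside 7.25% of all genes. DESeq2 called none of the 30 either, beside 39 of all genes tested. In CREX against CR mice 0 of the 30 genes and 0.00763% of 13112 genes were called. Here 1 of the 30 (Insig2) and 7.63% of all genes had an unadjusted p under 0.05. DESeq2 called none of the 30 and 30 of all genes tested. The EX term over all groups called 0% of 13530 genes, with 2 of the 30 and 10.6% of all genes at an unadjusted p under 0.05. The interaction of CR and EX called 0% of 13922 genes, and the smallest adjusted p of the 30 was 0.82 (edgeR), with 3 of the 30 (Npc1, Acat2 and Mvd) and 5.75% of all genes at an unadjusted p under 0.05. A difference of the CR response between sedentary and trained mice was thus not shown for any of the 30.

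The promoters of 4 members are shown because these genes moved together or, in the case of Hmgcs1, the other way. Each line gives the 250 bases before the start site from RefSeq (GRCm38.p6), 5′ to 3′ on the strand of the gene, with the SREBP core motif TCACNCCAC and the NF-Y box CCAAT, on either strand, in capitals.
Hmgcs1 (chr13:119690101-119690350, plus strand): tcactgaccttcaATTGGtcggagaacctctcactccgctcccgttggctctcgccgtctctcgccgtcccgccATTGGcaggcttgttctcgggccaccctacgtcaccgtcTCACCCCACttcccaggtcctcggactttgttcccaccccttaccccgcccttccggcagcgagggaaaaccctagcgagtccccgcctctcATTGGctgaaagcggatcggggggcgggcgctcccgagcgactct
Mvd (chr8:122443423-122443672, minus strand): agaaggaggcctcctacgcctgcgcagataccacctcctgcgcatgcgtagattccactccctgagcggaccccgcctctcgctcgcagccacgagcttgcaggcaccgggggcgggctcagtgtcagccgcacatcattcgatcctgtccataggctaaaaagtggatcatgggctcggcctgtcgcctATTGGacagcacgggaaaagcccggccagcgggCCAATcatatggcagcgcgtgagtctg
Lss (chr10:76531355-76531604, plus strand): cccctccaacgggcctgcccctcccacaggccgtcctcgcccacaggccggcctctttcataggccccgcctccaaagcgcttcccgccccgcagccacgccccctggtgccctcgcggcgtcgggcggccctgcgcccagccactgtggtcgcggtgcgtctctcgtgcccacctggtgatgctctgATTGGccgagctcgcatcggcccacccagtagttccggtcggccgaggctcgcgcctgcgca
Cyp51 (chr5:4104698-4104947, minus strand): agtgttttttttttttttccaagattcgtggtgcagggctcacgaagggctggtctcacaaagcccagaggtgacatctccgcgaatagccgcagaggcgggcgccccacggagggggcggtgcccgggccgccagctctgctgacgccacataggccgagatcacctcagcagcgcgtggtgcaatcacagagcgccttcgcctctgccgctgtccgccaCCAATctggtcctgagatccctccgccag
Hmgcs1 holds the only match to the SREBP core motif, TCACCCCAC, which begins 137 bases before the start, beside 3 NF-Y boxes. Only the string TCACNCCAC was searched, so sites that differ from it by a base were not looked for in any of these promoters. Mvd holds 2 NF-Y boxes, and Lss and Cyp51 hold 1 each.

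Over the window from 250 bases before to 50 after the start, promoters were given for 24 of the 30 genes. The core motif occurred in 1 of these 24 (Hmgcs1) and in 1.44% of all 27025 genes with a promoter. The NF-Y box occurred in 21 of the 24 genes, counting a gene with several starts once, and in 41.1% of all genes with a promoter, all but Acat2, Scap and Abca1 of the 24. The LXR element DR4, in its strict form of a perfect direct repeat of the half-site, was in none of the 24 and in 0.0148% of all genes with a promoter. Sites that differ from the core string by a base were not looked for, so a gene without a match may still hold one. A match is a description of letters in this window only, and Fdft1, Fdps, Sqle, Abcg1, Npc1 and Stard4 were not analysed here.

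In SkM, fewer of the 30 genes were called under CR. In CR against control mice 3 of the 30 genes were called higher and 0 lower, beside 4.27% and 5.32% of 13173 genes. The median over the 30 was 0.17, and 17 values were positive. The genes called were Abca1, Acat2 and Hsd17b7.

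Abca1, which loads cholesterol onto lipid-poor apolipoproteins, was the clearest. It had 12.8, 13.2, 14.3 and 16.3 CPM in controls and 22.7, 39.3 and 28.5 CPM in CR mice. Every CR library was above every control, at a log2 fold change of 1.09 ± 0.17 (adjusted p = 0.00258 by edgeR). In trained mice it had 14.4, 14.8, 14.7 and 9.32 CPM with free feeding and 29.7, 26.2 and 54.2 CPM in CREX, again without overlap (1.47 ± 0.28, adjusted p = 0.0184 by edgeR). This call was lost when EX replicate 1 or 2 was left out, at a highest adjusted p of 0.0517. Over all SkM groups the CR effect was 1.28 ± 0.18 (adjusted p = 9.94e-05 by edgeR).

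Acat2 and Hsd17b7 were less steady. Acat2 had 2.44, 2.79, 1.99 and 2.45 CPM in controls and 3.73, 3.64 and 4.77 CPM in CR mice (0.75 ± 0.17, adjusted p = 0.0187 by edgeR). The call was lost without CR replicate 3 or control replicate 3, and over all alternatives the log2 fold change ranged from 0.61 to 0.82 and the highest adjusted p was 0.0774 (edgeR). In trained mice it was not called (-0.19 ± 0.16), with 3.67, 3.71, 3.89 and 3.12 CPM in EX and 3.00, 3.04 and 3.45 CPM in CREX mice. Hsd17b7, a 3-ketosteroid reductase of the late pathway, had 2.90, 4.33, 2.99 and 3.78 CPM in controls and 4.65, 6.72 and 5.19 CPM in CR mice (0.66 ± 0.18, adjusted p = 0.0393 by edgeR). This call was lost in 5 of 7 fits that left out 1 library, at an adjusted p of up to 0.223. In CREX it had 4.83, 16.1 and 13.8 CPM against 3.98, 3.39, 3.30 and 5.54 CPM in EX, so replicate 1 overlapped the EX range and the other two stood far above it (1.51 ± 0.39, adjusted p = 0.0441 by edgeR). The CREX call was lost in 6 of 7 fits that left out 1 library, and without CREX replicate 1 the adjusted p was the smallest at 5.18e-05.

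**Figure D4:**
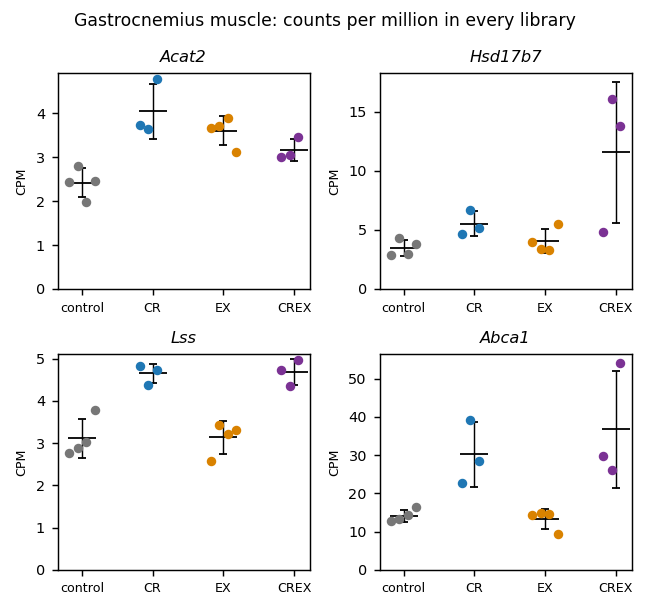
CPM (y axis, from 0) of Acat2, Hsd17b7, Lss and Abca1 in every SkM library of the 4 groups, with points for mice and bars for the mean ± SD. Abca1 and Lss are higher in all CR and CREX libraries than in any control or EX library, and 2 of 3 CREX libraries carry the rise of Hsd17b7.

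In CREX against EX mice, Abca1 and Hsd17b7 were the only 2 of the 30 genes called in SkM, beside 3.70% of 13112 genes higher and 5.17% lower, and the CR effect over all groups called the same pair, beside 5.57% and 7.90% of 13212 genes. Lss moved by 0.58 ± 0.16 in both restricted comparisons and passed the adjusted p in each (0.0340 and 0.0418 by edgeR), but its fold stayed under 1.5. Its libraries had 2.76 to 3.78 CPM in controls and 4.39 to 4.83 CPM in CR mice, and 2.58 to 3.44 CPM in EX and 4.35 to 4.96 CPM in CREX mice. Npc2 likewise passed the adjusted p without the fold minimum in both (0.57 ± 0.15 and 0.39 ± 0.10). Mvd, with the largest fold change in CR against control in BAT, had 5.62, 9.01 and 13.1 CPM in SkM CR mice and 5.01 to 6.98 CPM in controls, and was not called (0.64 ± 0.24, adjusted p = 0.0982 by edgeR).

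RNA of other tissues moved with CR in SkM. The hepatocyte markers summed to 46.1 to 265 CPM in CR mice and 1.46 to 7.26 CPM in controls, and 8 of the 8 that passed the filter were called higher. In the 2 CREX libraries with Alb at 0.164 and 0.278 CPM, Abca1 was at 26.2 and 54.2 CPM and Hsd17b7 at 16.1 and 13.8 CPM. Without the 4 libraries with Adipoq at 5 CPM or more, an alternative chosen after seeing the data, the CR effect over all groups was 1.57 for Abca1 and 1.53 for Hsd17b7, both called by edgeR. In CR replicate 2, with the lowest Adipoq (0.869 CPM) and the highest Alb (153 CPM) of the CR libraries, Acat2 was at 3.64 CPM. In CR replicates 1 and 3, Acat2 was at 3.73 and 4.77 CPM, and Adipoq at 1.33% and 1.8% of its BAT mean. Acat2 itself averaged 174 CPM in BAT of CR mice. In CREX replicate 1, with Adipoq at 14.8 CPM, Acat2 was at 3.00 CPM, against 3.04 and 3.45 CPM in the other CREX libraries. In EX replicate 1, with Adipoq at 12.8 CPM, Acat2 was at 3.67 CPM, against 3.71, 3.89 and 3.12 CPM in the other EX libraries. The fibroblast markers summed to 263 to 343 CPM against 393 to 513 CPM in controls, with 5 of 10 lower, and the endothelial markers to 240 to 285 CPM against 344 to 416 CPM, with 3 of 10 lower. The B cell markers summed to 3.91 to 10.7 CPM against 23.7 to 42.9 CPM, and the 1 that passed the filter, Cd74, was lower. Cd74 made up most of each sum, at a mean of 6.16 CPM in CR mice and 30.1 CPM in controls. The part of these cells and tissues in the sterol gene values was not tested.

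Training alone called none of the 30 genes in SkM either. EX against control called 0.0775% of 12907 genes by edgeR, and 4 of the 30, beside 6.85% of all genes, had an unadjusted p under 0.05: Mylip (-0.48 ± 0.12), Acat2 (0.57 ± 0.15), Npc1 (-0.40 ± 0.11) and Abcg1 (0.55 ± 0.25). CREX against CR called 0% of 13068 genes, with 2 of the 30 and 3.65% of all genes at an unadjusted p under 0.05. The interaction called 0% of 13610 genes, with 5 of the 30 and 4.92% of all genes at an unadjusted p under 0.05. The EX term over all groups called 0.0303% of 13212 genes and none of the 30, with 2 of the 30 and 6% of all genes at an unadjusted p under 0.05. DESeq2 called none of the 30 in these 4 fits, beside 52, 17, 4 and 19 of all genes tested, in the order given.

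The tissues differed in the response itself for 7 of the 30 genes. The difference of the CR effect between BAT and SkM, as log2 fold change in BAT minus that in SkM, was called for 6 genes as higher in BAT and for 1 as lower at an adjusted p under 0.05, beside 3.93% and 3.65% of 14369 genes. The 6 were Pmvk (1.08 ± 0.17), Msmo1 (0.99 ± 0.23), Mylip (0.95 ± 0.23), Insig1 (0.92 ± 0.25), Fdft1 (0.89 ± 0.19) and Fdps (0.70 ± 0.17), with adjusted p from 0.00165 to 0.0374 by edgeR. Leaving out 1 library ended the call of Insig1 in 9 of 14 fits (adjusted p up to 0.162), of Fdps in 4 and of Mylip in 2, and in none for the other 3 genes. For Pmvk the tissues moved apart, since it rose in BAT and stood at -0.36 ± 0.12 in SkM without a call. Abca1 was the reverse, at -1.29 ± 0.24 (adjusted p = 0.00481 by edgeR).

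In trained mice 3 of the 30 genes differed between tissues. Fdft1 (1.41 ± 0.22) and Cyp51 (1.03 ± 0.24) had a larger log2 change in BAT, and Abca1 (-1.60 ± 0.30) in SkM, beside 3.03% and 2.55% of 14410 genes (adjusted p = 0.00545, 0.0241 and 0.0108 by edgeR). Ctsb, which overlaps Fdft1, also had a larger change in BAT (0.67 ± 0.13, adjusted p = 0.0108 by edgeR). The call of Cyp51 was lost without SkM CREX replicate 2 or 3 or SkM EX replicate 1, at an adjusted p of up to 0.075 (edgeR). Mvd, Sqle and Lss rose in BAT under CR, but their differences between tissues were not called (0.75 ± 0.35, 1.37 ± 0.42 and 0.43 ± 0.17). The BAT and SkM libraries were compared without pairing, as nothing in the labels says which came from the same mouse.

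The levels of these genes differed between the tissues before any treatment. In control mice 18 of the 30 genes were higher in BAT and 4 lower, beside 29.8% and 30.2% of 13797 genes. The largest gap was Acat2, at 90.0, 115 and 109 CPM in BAT and 2.64, 3.00, 2.15 and 2.67 CPM in SkM on a scale normalised over both tissues (log2 difference 5.29 ± 0.13, adjusted p = 2.73e-11 by edgeR). Insig1 followed (4.28 ± 0.13), then Npc2 (3.40 ± 0.12), Nsdhl (2.88 ± 0.16), Hmgcs1 (2.80 ± 0.11) and Sqle (2.78 ± 0.28). The other genes higher in BAT were Lss, Abca1, Pmvk, Idi1, Cyp51, Abcg1, Ebp, Dhcr7, Msmo1, Sc5d, Srebf2 and Fdps, at log2 differences between 0.60 and 2.31.

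The 4 genes higher in SkM were Mvd (-1.46 ± 0.18), Lbr (-1.32 ± 0.12), Insig2 (-1.02 ± 0.09) and Npc1 (-0.62 ± 0.12). Lbr is an inner nuclear membrane protein as well as a sterol reductase. Mvk, Fdft1, Tm7sf2 and Scap passed the adjusted p but not the fold minimum, at 0.37 to 0.57, and Mylip, Stard4, Hsd17b7 and Soat1 did not pass the adjusted p. The direction held for all 22 genes under every scaling and filter run.

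**Figure D5:**
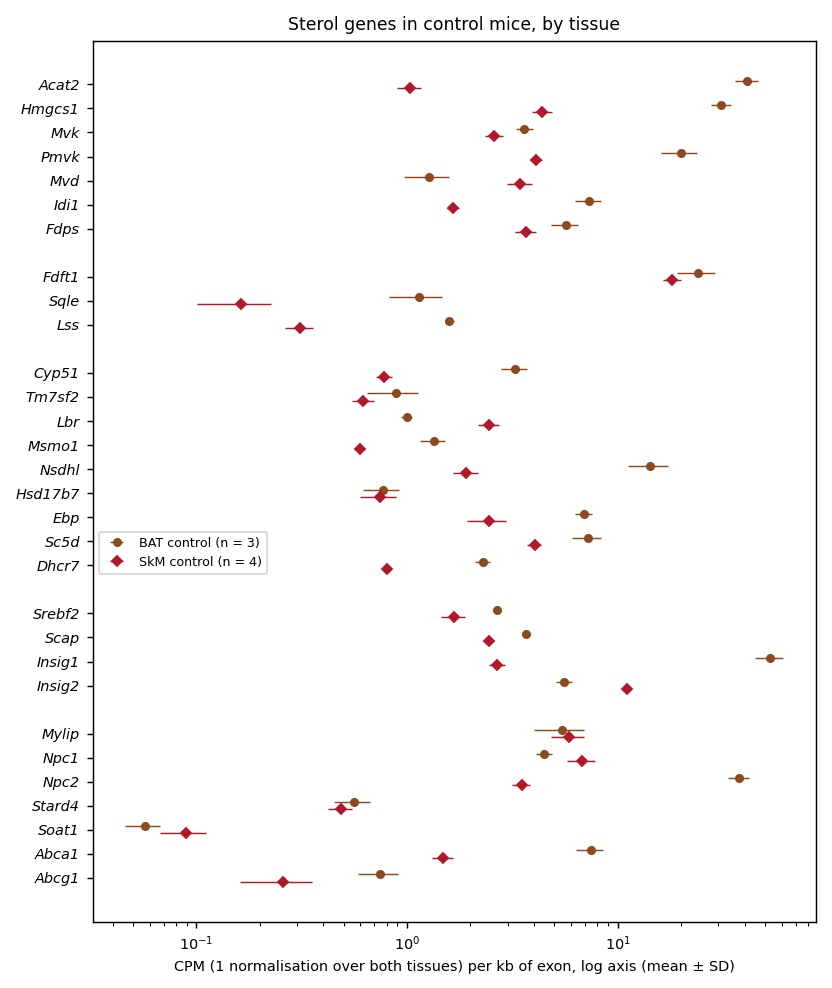
Mean ± SD of the level of each sterol gene (y axis, by role) in control BAT (n = 3, circles) and control SkM (n = 4, diamonds), in CPM per kb of exon on a log axis, normalised over both tissues. Insig1, Acat2, Npc2 and Hmgcs1 lead in BAT, from 53.0 to 31.1, and Fdft1 and Insig2 lead in SkM, at 18.2 and 11.1.

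Per kb of annotated exon, Insig1 was the most abundant of the 30 in control BAT, at 53.0 ± 8.25 CPM per kb (SD, n = 3). The length takes in the exons of all annotated transcripts of a gene, 10787 bases for Lss and 1713 for Pmvk. The ranks between genes therefore depend on the annotation as well as on the level. Acat2 (41.1 ± 5.13), Npc2 (37.8 ± 4.31) and Hmgcs1 (31.1 ± 3.42) came next, and the range of each over the libraries overlapped that of the gene before it. These genes were measured in the same libraries, so overlapping ranges do not show that the order changed within a library. Fdft1 (24.0 ± 4.83), which did not overlap Hmgcs1, and Pmvk (19.9 ± 3.80) followed, and Soat1 was last at 0.0568 ± 0.0107. In control SkM the order was another one: Fdft1 led at 18.2 ± 1.77 CPM per kb (n = 4), which is subject to the overlap with Ctsb, then Insig2 (11.1 ± 0.425), Npc1 (6.77 ± 0.993) and Mylip (5.90 ± 1.05). Insig2 was apart from both its neighbours, while Npc1 and Mylip overlapped. Sqle and Lss were among the lowest in SkM, at 0.163 ± 0.0624 and 0.312 ± 0.0476.

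Around the 30 genes, 30 other genes of sterol handling were counted, of which 26 passed the filter in the restricted comparisons. In BAT under CR, 3 rose and 1 fell, where 3.87% and 6.86% of all genes did. Stard5, a sterol carrier, rose by 1.11 ± 0.10 and Aacs, which activates acetoacetate for sterol synthesis, by 1.17 ± 0.18 (adjusted p = 0.000147 and 0.00419 by edgeR). Cyb5r3, which passes electrons to sterol oxidases, rose by 0.73 ± 0.09 (adjusted p = 0.000682 by edgeR). Scarb1, the receptor for high-density lipoprotein, fell by 0.71 on the log2 scale (SE 0.08, adjusted p = 0.000478 by edgeR). In CREX against EX, Stard5 (0.82 ± 0.11) and Cyb5r3 (0.61 ± 0.09) were again called higher, and none lower, where 1.86% and 2.63% of all genes were.

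In SkM under CR, 1 of the 26 rose and 2 fell, close to the 4.27% and 5.32% of all genes. Gramd1b, which carries cholesterol from the plasma membrane, rose by 0.84 ± 0.14, while Nceh1, a cholesteryl ester hydrolase, and Vldlr, a lipoprotein receptor, fell by 1.33 and 0.70 (adjusted p = 0.00458, 0.00389 and 0.0147 by edgeR). In CREX against EX, Gramd1b (0.85 ± 0.21) and Nceh1 (-1.70 ± 0.41) were called again, the only 2 of the 26, where 3.70% and 5.17% of all genes were. Over all SkM groups 2 of the 26 were called higher under CR and 1 lower, beside 5.57% and 7.9% of all genes. Aacs was among those higher, at 1.29 ± 0.40, though it was called in neither restricted comparison. It had 1.15 to 3.55 CPM in CR mice against 1.45 to 1.87 CPM in controls. In CREX mice it had 1.35 to 10.6 CPM against 1.08 to 2.22 CPM in EX mice, so the groups overlapped in both. Aacs averaged 103 CPM in BAT controls, and the part of adipocyte RNA in its SkM values was not tested. Between the tissues, the CR effect differed for 3 of the 27 genes tested, with Cyb5r3 (0.80 ± 0.14) higher in BAT and Scarb1 (-0.61 ± 0.15) and Gramd1b (-1.11 ± 0.32) lower, beside 3.93% and 3.65% of all genes. In trained mice Cyb5r3 (0.79 ± 0.15) was higher and Cyp27a1 (-0.83 ± 0.18), a sterol hydroxylase of mitochondria, lower, beside 3.03% and 2.55%.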

How the data were processed

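RNA from whole BAT and SkM was sequenced, 1 library per mouse and tissue. The authors aligned reads to mm10 with STAR (2.7.10a) and deposited RSEM (1.2.28 in the submitters' processing notes) expected counts per gene symbol. The counting command they state sets no strand option, and the annotation is not given in the sources used here. A total of 27 rows carried a spreadsheet date in place of a symbol.

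Here the deposited expected counts were rounded, filtered (filterByExpr), TMM-normalised and tested with edgeR 4.0.16 (robust quasi-likelihood, R 4.3.3, limma 3.58.1), with Benjamini-Hochberg adjustment over all genes tested. A gene was called at an adjusted p under 0.05 and a fold above 1.5, or by the adjusted p alone for interactions and differences between tissues. SE is the absolute log2 fold change divided by the root of F. Each pair of groups was fitted on its own libraries, the CR and EX effects on all groups of a tissue. Levels are CPM with TMM factors. DESeq2 1.42.0 and other settings were alternatives. The fits were tested on simulated data.

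Groups and replicate numbers come from the labels, and p-values measure the spread between these mice. The 30 genes and the other lists were chosen with earlier results of these data known. Named with values were the genes called in a comparison, and uncalled ones where a role is described. Ctsb and Acat3 were added after the values were seen. Of 34 other sterol genes listed, 4 are not reported here. Figures were drawn with matplotlib 3.10.9.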

Additional observations from a re-analysis of the deposited data

Results flagged for a closer look

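A search for single outlying libraries took 46 sets of 4 values, each for 1 gene in 1 group of 4 libraries. In 3 of them, 1 library lay far from the others, where chance flags about 5% of independent sets. The sets are not independent, since genes were measured in the same libraries. Fdft1 stood at 314 CPM in BAT CREX replicate 3 against 195 to 214 CPM in the other CREX libraries. Mylip stood at 40.9 CPM in the same library against 32.1 to 32.7 CPM. Abca1 stood at 9.32 CPM in SkM EX replicate 4 against 14.4 to 14.8 CPM.

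The effect of restriction differed between the tissues by a test of the difference itself (log2 change in BAT minus that in SkM, edgeR). In sedentary mice the difference was 1.08 for Pmvk, 0.70 for Fdps, 0.89 for Fdft1, 0.99 for Msmo1, 0.92 for Insig1, 0.95 for Mylip and -1.29 for Abca1. In trained mice it was 1.41 for Fdft1, 1.03 for Cyp51 and -1.60 for Abca1. The overlapping gene Ctsb differed by 0.34 ± 0.14 in sedentary and 0.67 ± 0.13 in trained mice.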

How the results depend on the processing

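Of 954 alternative values over the 62 calls of a gene in a comparison, 873 kept the call, 81 lost it and 0 changed direction. Counts of the 30 genes called higher or lower in each comparison stayed within 1.5 times in 526 of 568 alternatives. Many of these counts were 0 in the main fit, and 0 against 0 was taken as unchanged. The share thus says little about how steady the counts above 0 were. In BAT, CR against control gave 6 higher (from 11) and 0 lower (from 1) with the replicate block, and 0 lower with no filter on low counts. CREX against EX in BAT gave 4 higher (from 2) with no fold minimum and 1 lower (Hmgcs1, from 0) with DESeq2. In SkM, CR against control gave 5 higher (from 3) with the replicate block and with no fold minimum. CREX against EX in SkM gave 1 higher (from 2) with no filter and with the replicate block, and 4 higher and 1 lower with no fold minimum. The CR effect over all SkM groups gave 1 lower (Stard4, from 0) without the libraries with Adipoq at 5 CPM or more, and the tissue difference under CR gave 0 lower (from 1) with the replicate block. The cause was not tested. When 1 library at a time was left out, the counts of higher genes ran from 8 to 12 and of lower genes from 0 to 1 for CR against control in BAT, from 1 to 4 higher for CREX against EX, and from 7 to 10 higher and 1 to 1 lower for the CR effect. In SkM they ran from 1 to 4 higher for CR against control, from 0 to 3 higher and 0 to 2 lower for CREX against EX, from 0 to 1 higher for CREX against CR, from 2 to 3 higher and 0 to 1 lower for the CR effect, and from 0 to 1 higher for the interaction. Between tissues they ran from 17 to 19 higher and 3 to 4 lower in control mice, from 4 to 9 higher and 1 to 2 lower for the CR difference, and from 1 to 4 higher and 1 to 2 lower for the CREX against EX difference. Without SkM CREX replicate 1, Hsd17b7 was called in CREX against CR and in the interaction.

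The replicate numbers are not stated to mark a shared mouse, batch or day. The mean correlation of same-numbered libraries ranged from -0.302 to 0.146 over the 8 comparisons, so the numbers were not taken as pairs. Under the replicate block, Acat2, Cyp51, Hmgcs1, Insig1, Msmo1 and Sqle were not called in BAT under CR. Fdft1, Fdps, Lss, Mvd and Mylip kept the call in all 14 alternatives of that comparison. Depth limits Soat1 most, at 0.247 to 1.30 CPM in BAT.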
